A study of Mus musculus with 6 samples.

Results

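The 5 genes of a macrophage growth factor axis were followed in kidney cells: the ligand genes Csf1 and Il34, the gene of their shared receptor Csf1r, and the genes Csf2ra and Csf2rb, whose products form the receptor for granulocyte-macrophage colony-stimulating factor (GM-CSF). They were taken by symbol from the feature list of the count matrices, and each symbol matched 1 feature, so that 5 of 33696 genes are described. Kidneys of 3 sham and 3 DOCA-salt mice were dissociated into single cells, and transcripts were counted as unique molecular identifiers (UMIs) with the 10x Genomics 3′ method, 1 library per mouse. All 6 animals were male C57BL/6 mice aged 8 to 10 weeks. In the DOCA-salt mice the left kidney was taken out, a pellet of 50 mg deoxycorticosterone acetate (DOCA, a mineralocorticoid) was implanted 1 week later, and 1% NaCl was given as drinking water over 21 days. Sham mice had a sham operation, plain water and no pellet, so the effects of nephrectomy, DOCA and salt cannot be told apart. The question was which kidney cells carried transcripts of the ligands, which carried those of the receptors, and what differed between sham and DOCA-salt kidneys.

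Colony-stimulating factor 1 and interleukin-34 bind the same receptor, the tyrosine kinase encoded by Csf1r, and macrophages depend on this signal for survival and proliferation. In the kidney, tubular cells are a known source of both ligands, and resident macrophages carry the receptor. The GM-CSF receptor pairs a ligand-specific alpha chain (Csf2ra) with a beta chain (Csf2rb) that interleukin-3 and interleukin-5 receptors also use, and it is known from monocytes, neutrophils and dendritic cells. Mice carry a further beta chain gene, Csf2rb2, specific to interleukin-3.

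Promoter sequence was available for 2 of the 5 members, Csf1 and Csf2ra, which were also the members called in whole-kidney sums below, and is shown for that reason. Each line gives the 250 bases before the gene start from RefSeq (GRCm38.p6), 5′ to 3′ on the gene's strand, at chr3:107760470-107760719 (minus strand) for Csf1 and chr19:61228419-61228668 (minus strand) for Csf2ra. Capitals mark matches to an NF-kB motif in Csf1 and to the PU.1 core GAGGAA in Csf2ra, searched on both strands.
Csf1: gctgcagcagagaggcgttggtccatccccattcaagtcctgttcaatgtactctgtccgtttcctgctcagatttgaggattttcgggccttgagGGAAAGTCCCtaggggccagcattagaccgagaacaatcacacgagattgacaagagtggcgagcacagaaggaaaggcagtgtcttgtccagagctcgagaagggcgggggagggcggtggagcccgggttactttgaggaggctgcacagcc
Csf2ra: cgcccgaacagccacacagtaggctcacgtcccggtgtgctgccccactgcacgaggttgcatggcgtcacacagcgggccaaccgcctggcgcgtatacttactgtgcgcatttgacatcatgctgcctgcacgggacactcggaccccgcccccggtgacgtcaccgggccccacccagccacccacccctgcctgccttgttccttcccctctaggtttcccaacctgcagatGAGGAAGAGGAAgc
NF-kB mediates inflammatory transcription, and PU.1 is a transcription factor of myeloid cells. The Csf1 window held 1 NF-kB match on the minus strand, starting 154 bases before the start, and the Csf2ra window held none. The Csf2ra window held 2 adjacent PU.1 core matches on the plus strand, starting 14 and 8 bases before the start, and the Csf1 window held none. The motif TATAAA was found in neither. Of all 32851 promoter windows of this length, 7.25% held the NF-kB motif, 23.3% the PU.1 core and 12.4% TATAAA, so each match describes these letters only.

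On GRCm39 with the GENCODE annotation, Csf1 lies at chr3:107648364-107667806 (minus strand) and Il34 at chr8:111423928-111532584 (minus strand). Csf1r lies at chr18:61229714-61266535 (plus strand), Csf2ra at chr19:61212395-61216892 (minus strand) and Csf2rb at chr15:78209952-78238047 (plus strand). Il34 overlaps Vac14 and Mtss2 on the opposite strand over 23105 and 20119 bases, and the end of Csf1r overlaps Hmgxb3 on the opposite strand over 2189 bases. Whether counting used the strand is not given in the sources used here, so reads of these opposite-strand pairs may not have been kept apart. Csf2rb and Csf2rb2 shared 8.19% of the 90-base words of the Csf2rb transcript and 0% of those in its last 500 bases, the end that the 3′ method reads.

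The matrices held 76774 barcodes with 93172739 to 137819127 UMIs per mouse. Of these, 16210 exceeded a limit of 50% mitochondrial UMIs, 60561 passed this limit and that of 5% haemoglobin UMIs, and a doublet filter removed 4931, which left 55630 cells, 27512 of sham and 28118 of DOCA-salt mice, with a median of 4787 to 9148 UMIs per cell and mouse. Clustering without the 5 members gave 51 clusters, of which 49 took the name of 1 of 20 classes from marker genes (macrophage-like, proximal tubule-like and so on, hereafter without "-like"). The 2 unnamed clusters held 4246 sham and 3394 DOCA-salt cells, among them a cluster of 689 cells of which 625 came from DOCA-salt mouse 2. Any pair of libraries shared at most 0.525% of their barcodes. Macrophage markers (11 of 11) were all higher in the macrophage class than elsewhere. Clusters were named by these same markers, so this is no separate check of the name. Macrophages made up 1.53% ± 0.17 of sham cells and 6.10% ± 1.14 of DOCA-salt cells (SD, n = 3 mice). No cluster took the name of podocytes.

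Levels are given as CPM, the UMIs of a gene per 1000000 UMIs summed over a class in each mouse, as mean ± SD of 3 mice. They are not corrected for transcript length, so they are compared between cells and not between genes. The class named parietal, led by C3, Cp and Ncam1, was mixed. At a finer clustering resolution of 2, 73.4% of its 327 sham cells fell into a parietal cluster (led by Ncam1, Wt1 and Robo1) and 26.0% into an injured tubule cluster (led by C3, Ptgds and Gpc3), against 19.9% and 78.3% of its 843 DOCA-salt cells, so the class held different cells in each group. For counts at or near 0, the limit given is that of 3 UMIs, and limits and intervals cover counting error only.

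Csf1 transcripts were spread over endothelial, tubular and stromal cells and were scarce in macrophages. In sham kidneys the neutrophil class stood highest at 539 ± 35.4 CPM, although it rested on 25 UMIs in 25 cells, pooled 552 CPM with an exact 95% Poisson interval of 357 to 814. The parietal class (71.5 ± 7.44 CPM), fibroblasts (60.3 ± 6.75), principal cells of the collecting duct (58.2 ± 2.07) and endothelial cells (58.2 ± 8.73) followed, and each of these overlapped the next in its range over mice. All other classes were lower, with smooth muscle cells or pericytes at 18.8 ± 6.31, the thin limb at 17.5 ± 2.65 and macrophages at 6.77 ± 3.58 CPM. Sham proximal tubule cells had 0.873 ± 0.114 CPM. In DOCA-salt kidneys neutrophils again stood highest (230 ± 73.3 CPM, 25 UMIs in 43 cells), without overlap with endothelial cells at 71.7 ± 13.1. Principal cells (59.2 ± 17.4), fibroblasts (58.4 ± 11.3), the parietal class (45.4 ± 11.8) and the thin limb (44.3 ± 25.7) overlapped in this order.

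No class held most of the Csf1 UMIs, and the largest share lay in endothelial cells. They held 32.5% ± 3.78 of a sham mouse's Csf1 UMIs and 28.9% ± 0.73 of a DOCA-salt mouse's. Principal cells held 22.9% ± 1.55 in sham and 9.03% ± 1.99 in DOCA-salt, and the parietal class 14.8% ± 3.38 and 19.1% ± 3.09. Fibroblasts were 39 cells in sham mice and 819 in DOCA-salt mice, and their mean share of Csf1 UMIs in DOCA-salt mice was 13.6% ± 2.81. Within the endothelial class, the cluster led by Plvap, Flt1 and Kdr had a pooled 95.3 CPM of Csf1 in sham and 81.7 in DOCA-salt mice, against 11.2 and 25.2 (2 and 6 UMIs) in the cluster led by Cldn5, S100a4 and Icam2.

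Il34 was a transcript of the thin limb and of the mixed parietal class. In sham mice the thin limb had 278 ± 39.5 CPM and the parietal class 246 ± 108, which overlapped each other and no other class. Principal cells came next at 83.7 ± 6.90 CPM and stood apart from all others, then smooth muscle cells or pericytes (39.0 ± 15.6), the thick ascending limb (32.6 ± 2.56), fibroblasts (27.6 ± 47.9) and urothelial cells (19.6 ± 24.1), which overlapped. Proximal tubule cells had 11.3 ± 1.11 CPM. At resolution 2, the injured tubule cluster had 287, 209 and 488 CPM of Il34 in sham mice and the parietal cluster 136, 129 and 174 CPM. In sham leukocytes Il34 was at or near 0. The sham macrophages held 2 UMIs in 417 cells, and sham neutrophils, monocytes, dendritic, B and NK cells held 0, which allows up to 66.2 CPM in neutrophils and 3.04 CPM in dendritic cells. Of all cells with an Il34 UMI, macrophages were 0%, 0% and 0.231% in sham mice 1 to 3. They were 0.327%, 0.900% and 0.909% in DOCA-salt mice 1 to 3, which had more macrophages.

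In DOCA-salt mice the thin limb (264 ± 46.4 CPM) and the parietal class (256 ± 26.0) again overlapped and stood above all others. Fibroblasts came next at 127 ± 5.64 CPM, above urothelial cells at 108 ± 9.48 without overlap, and principal cells (85.9 ± 26.3) and the thick ascending limb (55.5 ± 12.9) followed. The cells that held the Il34 UMIs differed between the groups. The thin limb held 41.9% ± 3.25 of a sham mouse's Il34 UMIs and 16.5% ± 3.33 of a DOCA-salt mouse's, whereas the parietal class held 13.7% ± 6.57 and 37.3% ± 3.24. The proximal tubule, with a low level in many cells, held 22.9% ± 4.50 in sham and 14.99% ± 1.68 in DOCA-salt mice. The thin limb made up 2.88% ± 0.16 of sham and 1.72% ± 0.34 of DOCA-salt cells, and the parietal class 1.21% ± 0.33 and 2.99% ± 0.24. Of the Il34 UMIs of the parietal class, the cells that fell into the injured tubule cluster at resolution 2 held 59.7% in sham and 81.4% in DOCA-salt mice, and those of the parietal cluster 40.2% and 14.2%.

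**Figure D1:**
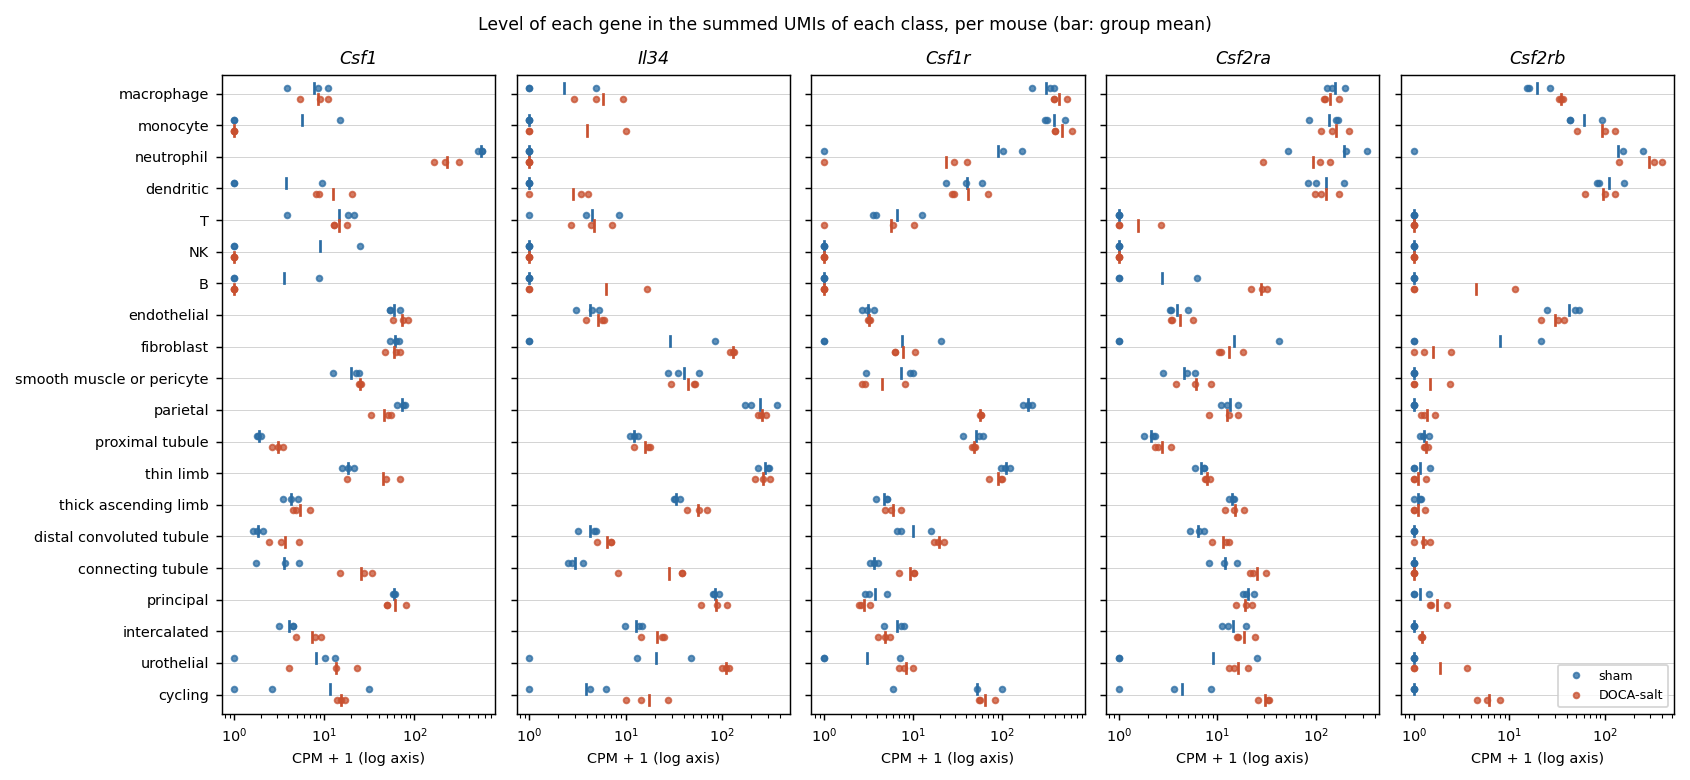
Level of each of the 5 genes (CPM + 1, log axis) in the summed UMIs of each class; points are mice, short bars group means, colors sham and DOCA-salt (n = 3 each). Il34 stood highest in the thin limb and parietal class, Csf1r in monocytes and macrophages, Csf2rb in neutrophils and dendritic cells, and Csf1 in the 25 sham and 43 DOCA-salt neutrophils.

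Among the receptors, Csf1r was highest in mononuclear phagocytes. Sham monocytes had 382 ± 117 CPM and sham macrophages 317 ± 89.5, which overlapped, and macrophages also overlapped the parietal class at 197 ± 22.7. The thin limb (110 ± 12.5), neutrophils (89.5 ± 83.8, 3 UMIs), cycling cells (51.9 ± 47.2) and the proximal tubule (50.7 ± 13.2) followed and overlapped in this order. In DOCA-salt mice monocytes (472 ± 126) and macrophages (435 ± 90.3) overlapped each other and no other class, and the parietal class had 56.6 ± 0.94 CPM. Endothelial cells, which served as a background, had 2.13 ± 0.49 CPM in sham and 2.22 ± 0.08 in DOCA-salt mice. B cells held 0 Csf1r UMIs in 145 sham and 61 DOCA-salt cells, which allows up to 7.03 and 15.3 CPM.

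Dendritic cells were not uniform. The cluster led by Tnip3, Cd209a and Mgl2 had a pooled 79.4 CPM of Csf1r in sham (33 UMIs) and 90.9 in DOCA-salt mice (87 UMIs), and the cluster led by Wdfy4, Pkib and Naaa had 5.6 (3 UMIs) and 1.9 (2 UMIs). Both clusters carried Csf2ra and Csf2rb, with Csf2ra at 168 and 164 CPM in the former and 78.5 and 98.1 in the latter.

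The proximal tubule made up 49.0% ± 6.18 of sham cells and held most Csf1r UMIs of the sham kidney, 68.4% ± 8.06 against 5.67% ± 2.28 in macrophages. In DOCA-salt mice the proximal tubule held 47.3% ± 10.5 and macrophages 30.1% ± 9.38. These proximal tubule UMIs were not spread evenly. Of the 7 clusters of the class, 3 lay above the level of the class pooled over mice and held 92.3% of its Csf1r UMIs in sham and 94.6% in DOCA-salt mice, in 34.9% and 32.5% of its cells. They had 120 CPM in sham and 115 in DOCA-salt mice, and the other 4 clusters 6.197 and 4.17.

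The cluster led by Lonrf3, Osgin1 and Pdk4 stood out, with 151, 182 and 102 CPM of Csf1r in sham mice 1 to 3 and 139, 150 and 165 in DOCA-salt mice 1 to 3. The groups overlapped. A Csf1r UMI was found in 56.1% of its sham cells and 58.7% of its DOCA-salt cells, at a median of 13043 and 12965 UMIs per cell, against 1.27% and 1.67% of endothelial cells at 3637 and 5848 UMIs. Its summed macrophage markers were 3.04 to 7.73 CPM in sham and 19.6 to 28.9 CPM in DOCA-salt mice, whereas macrophages had 10674 to 11867 and 13367 to 14571 CPM of them. Per CPM of Csf1r, the cluster thus had 0.0396 CPM of macrophage markers in sham and 0.164 in DOCA-salt mice, and macrophages had 35.5 and 32.4. A C1q UMI, the mark of macrophage RNA, was found in 5.33% of its sham cells with Csf1r and in 4.30% of those without, and in 25.3% and 21.6% of its DOCA-salt cells. The opposite-strand neighbour Hmgxb3 had 23.4 CPM there in sham and 20.9 in DOCA-salt mice. The part of Hmgxb3 reads in the Csf1r counts was not tested. With mitochondrial UMIs limited to 20%, the proximal tubule had 91.1 CPM of Csf1r in sham and 92.3 in DOCA-salt mice.

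**Figure D2:**
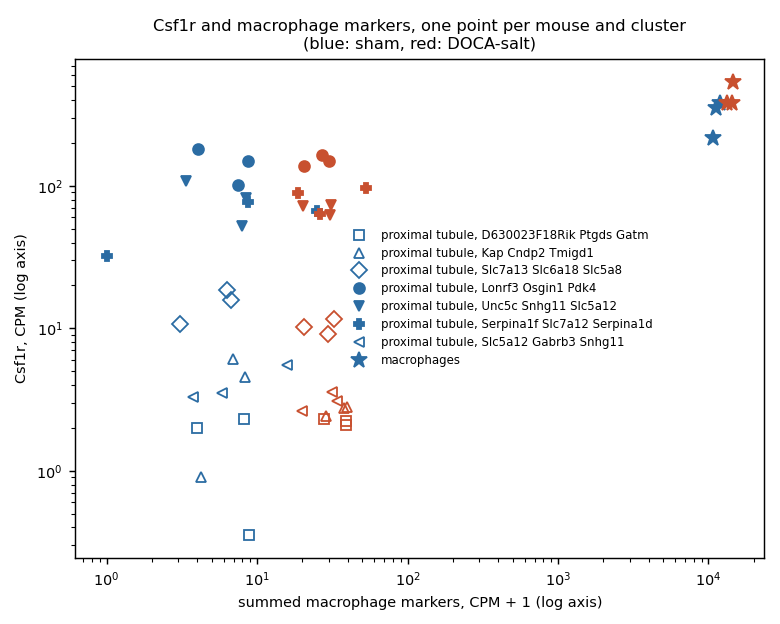
Csf1r (CPM, log axis) against the summed level of 11 macrophage markers (CPM + 1, log axis), with a point per mouse for each proximal tubule cluster and for macrophages. Clusters led by Lonrf3, Unc5c and Serpina1f had Csf1r levels of 32.02 to 182 CPM at macrophage marker levels of at most 51.9 CPM, far to the left of macrophages.

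Csf2ra, the alpha chain, was a transcript of myeloid cells with a low level along the distal nephron. In sham mice neutrophils (195 ± 141 CPM, 7 UMIs), macrophages (158 ± 34.6), monocytes (137 ± 46.0) and dendritic cells (125 ± 59.6) overlapped and stood apart from principal cells at 19.5 ± 2.86. Fibroblasts (13.8 ± 23.9, 2 UMIs), intercalated cells (13.4 ± 4.42), the thick ascending limb (13.2 ± 0.925) and the connecting tubule (10.98 ± 3.90) followed, and each overlapped the next. The thick ascending limb and the connecting tubule did not overlap principal cells. The proximal tubule had 1.11 ± 0.273 CPM, and sham T cells held 0 UMIs in 283 cells. In DOCA-salt mice monocytes (158 ± 53.9), macrophages (139 ± 29.6), dendritic cells (127 ± 38.6) and neutrophils (92.1 ± 57.3) overlapped, and macrophages held 38.2% ± 7.56 of the Csf2ra UMIs against 20.2% ± 2.80 in sham mice.

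Csf2rb, the beta chain, was found in neutrophils, dendritic cells, monocytes and macrophages, and also in endothelial cells. Sham neutrophils (136 ± 128 CPM, 8 UMIs), dendritic cells (109 ± 43.7), monocytes (59.0 ± 29.1), endothelial cells (41.4 ± 15.7) and macrophages (18.4 ± 6.44) overlapped in this order. DOCA-salt neutrophils had 288 ± 132 CPM and stood apart from dendritic cells (95.8 ± 33.5) and monocytes (92.3 ± 39.1), and these stood apart from macrophages (33.9 ± 1.65) and endothelial cells (29.4 ± 8.27). The proximal tubule had 0.282 ± 0.136 CPM in sham and 0.337 ± 0.073 in DOCA-salt mice.

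Endothelial cells held 65.7% ± 11.8 of the Csf2rb UMIs in sham and 42.8% ± 8.63 in DOCA-salt mice. Nearly all of them came from 1 cluster, led by Slc14a1, Cldn5 and Lef1, with a pooled 174 CPM in sham (410 UMIs in 253 cells) and 200 CPM in DOCA-salt mice (455 UMIs in 193 cells). Slc14a1 encodes a urea transporter of the descending vasa recta. The largest endothelial cluster, led by Plvap, had 0.6 and 1.9 CPM. Csf2rb2 had the class profile nearest to Csf2rb (Pearson r = 0.95 over 20 classes), with 88.4% ± 6.10 of its sham UMIs in endothelial cells.

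**Figure D3:**
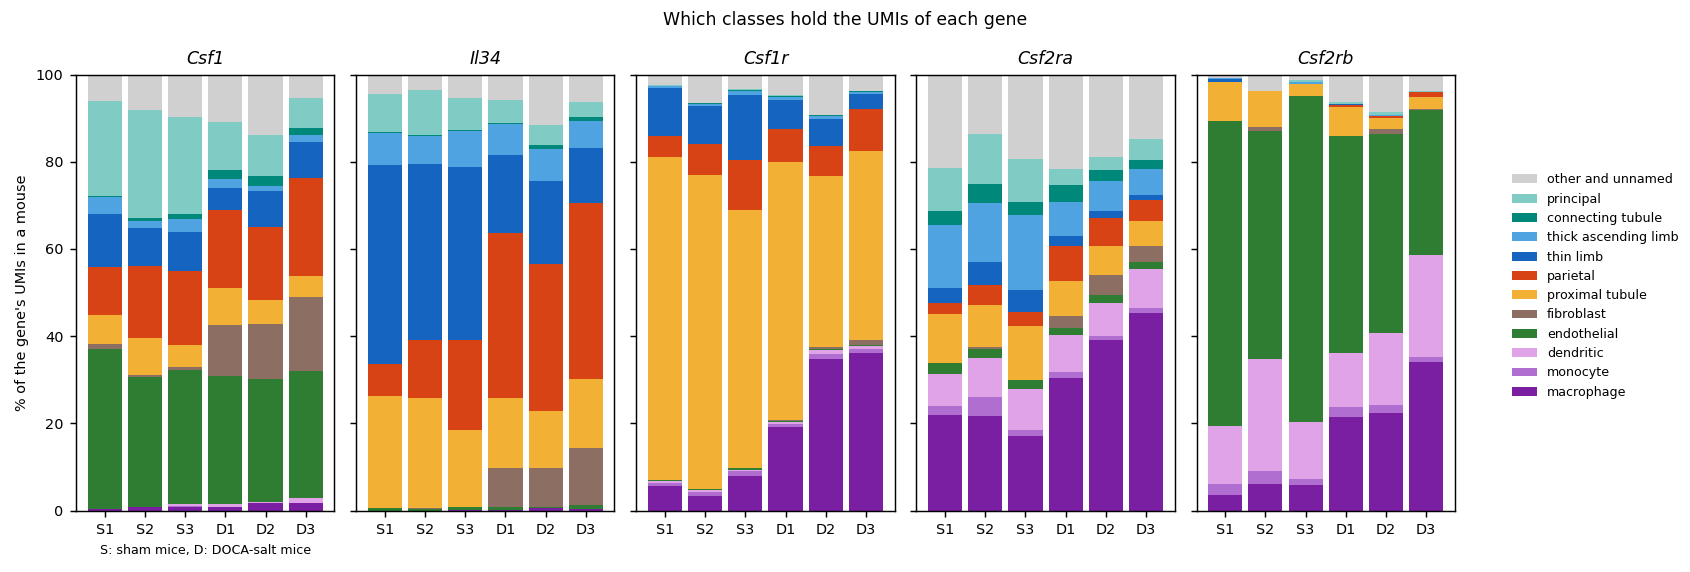
Share of each gene's UMIs (% of all its UMIs in a mouse) held by the classes, as stacked bars for sham mice S1 to S3 and DOCA-salt mice D1 to D3. Macrophages held 5.67% of Csf1r UMIs in sham and 30.1% in DOCA-salt mice, and the parietal class 13.7% and 37.3% of Il34 UMIs, of which cells of the injured tubule cluster at resolution 2 held 59.7% and 81.4%.

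Whole-kidney sums, with all cells of a mouse added up, were compared between 3 DOCA-salt and 3 sham mice with edgeR's quasi-likelihood test, with p-values adjusted over all genes by the Benjamini-Hochberg method and called below 0.05. Of the 5 members, 2 were called, both higher in DOCA-salt mice, where 17.3% of all 19658 genes tested were called and 11.5% were called higher. Log2 changes are given with their SE, and the median over all genes tested was -0.02. In such sums, more cells of a type and more RNA per cell cannot be told apart.

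Csf1 had 7.70, 7.71 and 9.17 CPM in sham mice 1 to 3 and 10.6, 19.9 and 20.02 CPM in DOCA-salt mice 1 to 3. The groups did not overlap, and DOCA-salt mouse 1 lay closest to sham. The means were 8.19 ± 0.85 and 16.8 ± 5.38 CPM, and the log2 change was 0.91 ± 0.23 (adjusted p = 0.027). The call was lost without sham mouse 1 (log2 change 0.86, adjusted p = 0.101), without DOCA-salt mouse 2 (0.80, 0.083) and without DOCA-salt mouse 3 (0.79, 0.101). With macrophages left out of the sums the log2 change was 0.95 (adjusted p = 0.029).

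Csf2ra had 6.88, 5.30 and 5.96 CPM in sham mice and 9.13, 15.7 and 12.5 CPM in DOCA-salt mice, again without overlap. The means were 6.05 ± 0.79 and 12.5 ± 3.30 CPM, and the log2 change was 0.92 ± 0.20 (adjusted p = 0.016). The call was lost without DOCA-salt mouse 3 (0.93, adjusted p = 0.052), with macrophages left out of the sums (0.58, adjusted p = 0.077) and with the replicate number as a block.

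Il34 had 30.6, 25.8 and 35.8 CPM in sham mice and 39.0, 56.0 and 49.1 CPM in DOCA-salt mice. All DOCA-salt values lay above all sham values, but the log2 change of 0.52 ± 0.16 did not pass (adjusted p = 0.063). It passed with library size only as the scaling (0.64, adjusted p = 0.027), with DESeq2 (0.52, 0.0265), without a filter on low counts (0.52, 0.048), without sham mouse 3 (0.66, 0.042) and without DOCA-salt mouse 1 (0.64, 0.036). Here and below, the p of a fit without this filter is not read as a measure of the spread between mice. Csf2rb had 3.14, 1.94 and 3.39 CPM in sham and 3.41, 5.38 and 4.83 CPM in DOCA-salt mice, with a log2 change of 0.56 ± 0.25 (adjusted p = 0.17). Thus 4 of 5 members did not overlap between the groups and lay higher in DOCA-salt mice, which held for 26.6% of all genes.

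Csf1r was the exception. It had 52.9, 49.4 and 34.0 CPM in sham mice and 45.4, 54.8 and 48.8 CPM in DOCA-salt mice, which overlapped, with a log2 change of 0.01 ± 0.15 (adjusted p = 0.97). With macrophages left out of the sums the log2 change was -0.38 (adjusted p = 0.167), at 43.3 ± 10.2 CPM in sham and 35.7 ± 2.66 in DOCA-salt mice.

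The change in whole-kidney sums was also split by arithmetic, with classes pooled over mice, as a description added after seeing the data. With every class kept at its sham level and only the share of each class moved to that of DOCA-salt mice, the log2 change of Csf1 was 0.85, and with shares kept at sham and only the levels moved it was 0.50, against a total of 1.04. These values need not add up to the total. For Csf2ra the shares gave 0.88 and the levels 0.33 (total 1.04), for Il34 0.29 and 0.24 (total 0.65), for Csf2rb 0.72 and -0.13 (total 0.68), and for Csf1r 0.31 and -0.15 (total 0.11).

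Ligand UMIs outside macrophages were also set against the number of macrophages. A sham mouse had 4.32 ± 0.28 Csf1 UMIs and 16.3 ± 2.49 Il34 UMIs per macrophage, and a DOCA-salt mouse 2.52 ± 0.64 and 7.58 ± 2.17. The groups did not overlap for either ligand. The divisor, the number of macrophages, was 130 to 153 in sham and 428 to 678 in DOCA-salt mice, so lower ratios without overlap were largely set by it in advance. Receptor UMIs set against it in the same way were lower too, also without overlap. They were 23.2 and 5.69 for Csf1r, 2.58 and 1.23 for Csf2ra, and 1.43 and 0.535 for Csf2rb. The lower ratios are thus not particular to the ligands, and the share of all genes without overlap was not computed. These ratios depend on how many cells of each type were recovered and on depth, and were not tested.

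**Figure D4:**
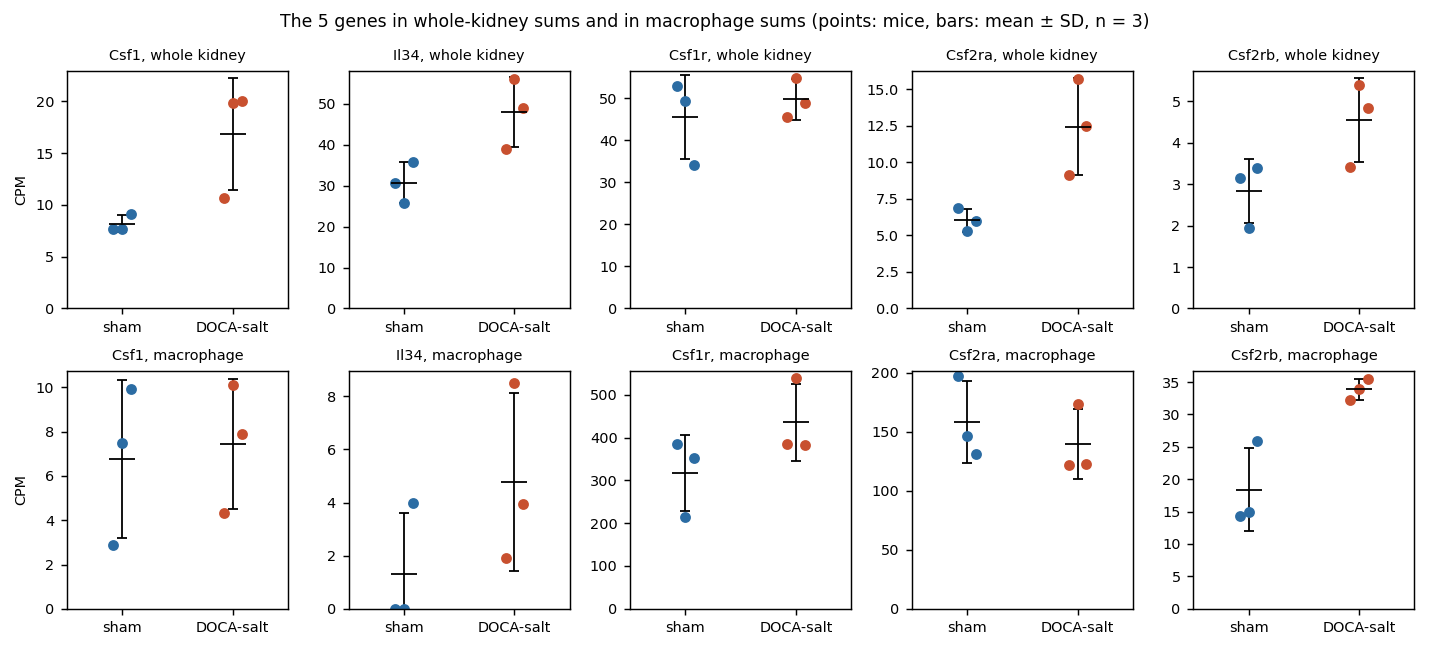
CPM of the 5 genes in whole-kidney sums (upper panels) and in macrophage sums (lower panels), with a point per mouse and bars for mean ± SD (n = 3 sham, 3 DOCA-salt). In whole kidneys Csf1, Il34, Csf2ra and Csf2rb did not overlap between groups, and in macrophages only Csf2rb did not.

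Within macrophages, the question was whether the receptors differed per cell, apart from cell number. The class held 417 sham cells (130 to 153 per mouse) and 1726 DOCA-salt cells (428 to 678). Of 9025 genes tested, 6.76% were called and 3.29% were called higher. By edgeR 0 of the 4 members tested were called, 1 of 4 had an unadjusted p below 0.05, and DESeq2 also called 0. Il34 was under the filter on low counts. In the macrophage sums the 20 proximal tubule markers summed to 5082 to 6389 CPM in sham and 2223 to 3305 CPM in DOCA-salt mice, the 6 injured tubule markers to 57.6 to 74.97 and 121 to 235 CPM, and the 9 fibroblast markers to 0 to 1.99 and 22.1 to 34.8 CPM. The part of this RNA in the macrophage values was not tested.

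Csf1r had 384, 216 and 352 CPM in sham and 385, 540 and 382 CPM in DOCA-salt macrophages. The groups overlapped, with sham mouse 2 lowest and DOCA-salt mouse 2 highest, and the log2 change was 0.37 ± 0.20 (adjusted p = 0.34). Csf2ra had 197, 146 and 131 CPM in sham and 122, 174 and 123 CPM in DOCA-salt macrophages, a log2 change of -0.27 ± 0.18 (adjusted p = 0.46). Csf2rb had 14.4, 14.99 and 25.8 CPM in sham and 32.2, 33.9 and 35.5 CPM in DOCA-salt macrophages. These groups did not overlap, as was the case in the same direction for 17.1% of genes. Its log2 change of 0.83 ± 0.27 missed the threshold (adjusted p = 0.080) and passed with library size only (0.92, 0.0485), a scaling that moved the median of all macrophage genes by 0.083, without a filter on low counts (0.92, 0.037) and without sham mouse 3 (1.17, 0.040). The log2 change of Csf1 in macrophages was 0.21 ± 0.53 (adjusted p = 0.89).

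The macrophages of the groups lay mostly in different clusters. The cluster led by Ccl4, Ccl3 and Mmp13 held 74.6% of sham and 6.78% of DOCA-salt macrophages, and clusters led by Pid1, Ccl7 and Ccl8 held 28.0%, 24.0% and 16.3% of DOCA-salt macrophages and 7.43%, 4.56% and 1.20% of sham macrophages. In the Ccl4 cluster Csf1r had a pooled 325 CPM in sham and 375 in DOCA-salt mice, and Csf2ra 179 and 114. Across the DOCA-salt clusters Csf1r ran from 214 CPM in the Mmp13 and Mmp12 cluster of 21 cells to 554 CPM in the Ccl8 cluster. The cluster led by Mmp12, Ccl6 and Lyz2, with 125 DOCA-salt and 0 sham cells, had 237 CPM of Csf2ra and 89.1 CPM of Csf2rb (77.6 to 102 over mice), against 12.1 to 26.7 CPM of Csf2rb in the other DOCA-salt macrophage clusters.

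The rule of at least 10 cells in every mouse left 16 classes, macrophages included. Over these, 48 pairs of a member and a class passed the filter on low counts, of which 6 were called higher and 1 lower in DOCA-salt mice. Over all genes, 28.5% were called in the parietal class, 24.8% in the connecting tubule, 20.5% in cycling cells, 8.72% in endothelial cells, 7.43% in the distal convoluted tubule, 7.12% in the proximal tubule, 7.03% in principal cells, 6.76% in macrophages and 6.60% in intercalated cells. The share was 1.76% in smooth muscle cells or pericytes, 1.60% in the thick ascending limb, 1.16% in T cells, 0.652% in the thin limb, 0.0843% in dendritic cells, 0.0576% in B cells and 0% in monocytes. Csf1 was called in 2 of 11 classes, Il34 in 2 of 10, Csf1r in 1 of 10, Csf2ra in 2 of 13 and Csf2rb in 0 of 4.

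Both ligands rose in the connecting tubule, where 24.8% of 9854 genes were called and 12.3% were called higher. Csf1 had 0.753, 2.66 and 4.24 CPM in sham and 14.04, 32.6 and 26.6 CPM in DOCA-salt mice (12 and 89 UMIs), a log2 change of 2.96 ± 0.48 (adjusted p = 0.00038). Il34 had 1.51, 2.66 and 1.82 CPM in sham and 7.35, 37.6 and 37.5 CPM in DOCA-salt mice (9 and 95 UMIs), a log2 change of 3.49 ± 0.63 (adjusted p = 0.00088). Neither pair of groups overlapped, which was the case in the same direction for 28.8% of genes. With so few sham UMIs, both ligands passed the filter on low counts only through the DOCA-salt mice, so the size of these changes is uncertain. Csf2ra rose there as well, from 10.98 ± 3.90 to 24.4 ± 5.35 CPM, and its log2 change was 1.00 ± 0.31 (adjusted p = 0.029), a call lost with DESeq2 (1.01, adjusted p = 0.070), without sham mouse 3 (0.78, 0.122) and without DOCA-salt mouse 2 (0.78, 0.163). This call was also lost with the replicate number as a block. In the same cells the 6 markers of injured tubules summed to 4.65 to 8.28 CPM in sham and 606 to 952 CPM in DOCA-salt mice, the 4 parietal markers to 0.66 to 9.79 and 148 to 309 CPM, and the 9 principal cell markers to 6139 to 8109 and 2022 to 2433 CPM. The part of these cells in the ligand values was not tested. The 5 connecting tubule markers themselves summed to 50567 CPM in sham and 29930 CPM in DOCA-salt cells of the class. The class held 130, 178 and 211 sham cells and 100, 84 and 86 DOCA-salt cells. With mitochondrial UMIs of at most 20%, the cluster of this name held 54, 75 and 62 sham cells but 5, 3 and 2 DOCA-salt cells. The changes in this class could therefore not be tested at that limit.

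In the proximal tubule, where 7.12% of 16047 genes were called and 4.95% were called higher, Csf1 had 0.795, 1.00 and 0.822 CPM in sham and 1.65, 2.47 and 2.09 CPM in DOCA-salt mice. The groups did not overlap, as for 19.2% of genes in this direction, and the log2 change was 1.19 ± 0.23 (adjusted p = 0.018). The call was lost without sham mouse 1 (1.09, adjusted p = 0.068), sham mouse 3 (1.17, 0.059), DOCA-salt mouse 2 (1.03, 0.074) or DOCA-salt mouse 3 (1.19, 0.075), and with mitochondrial UMIs of at most 20% (0.90, 0.0515). It was also lost with the replicate number as a block. In the same sums, the summed markers of other cell types lay higher in DOCA-salt mice, with macrophage markers at 2.74 to 8.24 CPM in sham and 21.1 to 33.1 CPM in DOCA-salt mice, endothelial markers at 12.6 to 23.6 and 27.8 to 42.0 CPM, and fibroblast markers at 0.525 to 2.52 and 13.5 to 18.9 CPM. The part of these cells in the Csf1 values was not tested. Il34 (0.34 ± 0.15, adjusted p = 0.22) and Csf1r (-0.14 ± 0.17, adjusted p = 0.65) did not pass there.

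Cycling cells had 2.64, 0 and 7.54 CPM of Csf2ra in sham mice 1 to 3 and 32.4, 31.9 and 25.0 CPM in DOCA-salt mice 1 to 3 (6 and 148 UMIs), a log2 change of 3.78 ± 0.62 (adjusted p = 0.00055), where 20.5% of 10482 genes were called, 14.6% were called higher and 27.0% were higher without overlap. Il34 in cycling cells went from 2.87 ± 2.67 to 16.5 ± 9.18 CPM, and the log2 change was 2.06 ± 0.57 (adjusted p = 0.020), a call lost without sham mouse 2 (1.88, adjusted p = 0.091) and without DOCA-salt mouse 2 (1.49, 0.150). With so few sham UMIs, Csf2ra and Il34 passed the filter on low counts in cycling cells through the DOCA-salt mice. The size of both changes and their p are therefore uncertain. The 11 macrophage markers summed to 5.03 to 142 CPM in sham and 991 to 1628 CPM in DOCA-salt cycling cells. Of sham cycling cells 98.7% lay in the cluster led by Birc5, as did 73.4% of DOCA-salt cycling cells, with the rest of the latter in clusters led by Cenpf (16.1%) and Mki67 (10.5%). Of the 148 Csf2ra UMIs of DOCA-salt cycling cells, 132 lay in the Mki67 cluster, whose 49 DOCA-salt cells had a pooled 353 CPM of Csf1r and 203 CPM of Csf2ra. This cluster held 4 sham cells.

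The member called lower was Csf1r in the parietal class, where 28.5% of 12346 genes were called and 14.4% were called lower. It had 219, 173 and 198 CPM in sham mice and 57.0, 57.3 and 55.5 CPM in DOCA-salt mice, with little spread and no overlap (26.6% of genes were lower without overlap), and the log2 change was -1.68 ± 0.13 (adjusted p = 7.3e-06). Proximal tubule markers summed to 3581 to 6148 CPM in its sham cells and 12223 to 12651 CPM in its DOCA-salt cells, and injured tubule markers to 641 to 711 and 815 to 883 CPM. At resolution 2 the parietal cluster had 222, 181 and 223 CPM of Csf1r in sham and 127, 116 and 118 CPM in DOCA-salt mice (log2 change -0.82, adjusted p = 0.0094), and the injured tubule cluster had 184, 120 and 135 CPM (21 to 56 sham cells per mouse) and 31.0, 33.6 and 30.8 CPM (275 to 371 cells). With mitochondrial UMIs of at most 20% the log2 change was -0.90 (adjusted p = 0.0048). Csf1 in the parietal class had 73.2, 63.3 and 77.9 CPM in sham and 31.98, 50.4 and 53.8 CPM in DOCA-salt mice (log2 change -0.53 ± 0.20, adjusted p = 0.066), and it passed with library size only (-0.65, 0.025), without the filter (-0.45, 0.040) and without DOCA-salt mouse 3 (-0.68, 0.050). The direction turned in the parietal cluster at resolution 2, with 72.5, 57.3 and 84.4 CPM in sham and 62.6, 76.3 and 94.7 CPM in DOCA-salt mice (log2 change 0.12, adjusted p = 0.87), and with mitochondrial UMIs of at most 20% (0.09, adjusted p = 0.90). The injured tubule cluster at resolution 2 had 47.4, 54.2 and 52.8 CPM of Csf1 in sham and 19.3, 33.6 and 33.4 CPM in DOCA-salt mice.

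In the classes that held most of a gene's transcripts, the other changes did not pass. Csf1 in endothelial cells had 68.3, 53.2 and 53.1 CPM in sham and 57.5, 83.3 and 74.3 CPM in DOCA-salt mice (log2 change 0.29 ± 0.16, adjusted p = 0.31). The log2 change of Il34 was -0.05 ± 0.17 (adjusted p = 0.96) in the thin limb and 0.17 ± 0.24 in the parietal class (adjusted p = 0.66), which became 0.63 (adjusted p = 0.0098) without sham mouse 3. At resolution 2, the parietal cluster had 153, 152 and 286 CPM of Il34 in DOCA-salt mice, against the 136, 129 and 174 CPM of sham mice given above (log2 change 0.41, adjusted p = 0.46), and the injured tubule cluster had 209, 239 and 170 CPM against 287, 209 and 488 CPM, which was not tested. The groups overlapped in both clusters. In the thick ascending limb, where 1.60% of genes were called, Il34 had 31.3, 30.9 and 35.5 CPM in sham and 42.1, 67.8 and 56.6 CPM in DOCA-salt mice, without overlap (8.02% of genes in this direction), and its log2 change of 0.76 ± 0.17 just missed the threshold (adjusted p = 0.056). It passed with DESeq2 (0.76, adjusted p = 0.015), with library size only (0.76, 0.044), without a filter on low counts (0.76, 3.7e-05), with mitochondrial UMIs of at most 20% (1.23, 0.015), without sham mouse 2 (0.70, 0.017) and without DOCA-salt mouse 1 (0.94, 0.035). Csf1 in the thin limb had 20.1, 14.8 and 17.5 CPM in sham and 17.1, 47.9 and 68.0 CPM in DOCA-salt mice, with DOCA-salt mouse 1 within the sham range (log2 change 1.31 ± 0.38, adjusted p = 0.20). Without that mouse it was 1.72 (adjusted p = 0.0082), DESeq2 gave 1.34 (adjusted p = 0.015), and without a filter on low counts it was 1.32 (adjusted p = 2.3e-08). Without the filter every gene with any UMI was kept. The p of Csf1 here and of Il34 in the thick ascending limb then fell far at nearly the same change from the same counts. These p-values are therefore not read as a measure of the spread between mice. For Csf2rb in endothelial cells the log2 change was -0.52 ± 0.28 (adjusted p = 0.32), which became -0.76 (adjusted p = 0.019) without sham mouse 2 and -0.49 (adjusted p = 0.040) without a filter on low counts. The Slc14a1 cluster, which carried nearly all of these UMIs, made up 15.3% of sham and 8.78% of DOCA-salt endothelial cells, and within it Csf2rb ran from 128 to 207 CPM over sham mice and from 162 to 240 CPM over DOCA-salt mice, which overlapped and was not tested. Csf2ra in dendritic cells had a change of 0.02 ± 0.31 (adjusted p = 0.99).

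Fibroblasts were too few in sham mice (24, 6 and 9 cells) for the rule of 10 cells, and were fitted in addition after seeing the data. Il34 had 0, 82.9 and 0 CPM in sham mice (4 UMIs in all), and 131, 121 and 129 CPM in DOCA-salt mice. The log2 change was 2.99 ± 0.66 (adjusted p = 0.011), where 5.30% of 9867 genes were called. Il34 passed the filter on low counts through the DOCA-salt mice, and all 4 sham UMIs came from sham mouse 2 with its 6 cells. The size of this change and its p are therefore uncertain. Csf1 had 52.8, 62.2 and 65.9 CPM in sham (15 UMIs) and 46.0, 61.4 and 67.9 CPM in DOCA-salt fibroblasts, a log2 change of 0.00 ± 0.41 (adjusted p = 1.00).

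**Figure D5:**
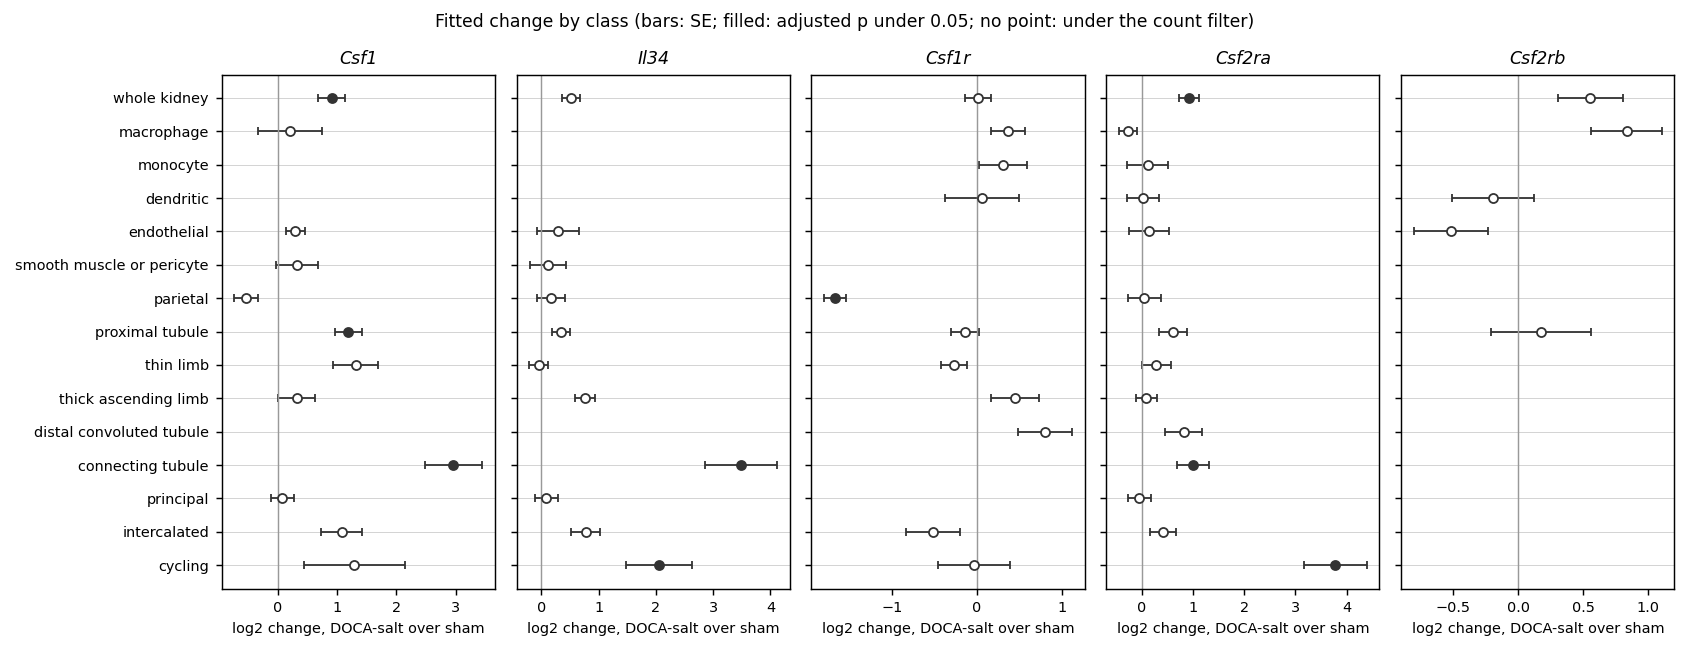
Log2 change of DOCA-salt over sham for each gene and class (points, with bars for SE; filled points have an adjusted p below 0.05 in edgeR's quasi-likelihood test, n = 3 mice per group). Filled points are Csf1 and Csf2ra in whole kidney, Csf1 in the connecting and proximal tubule, Il34 in the connecting tubule and cycling cells, Csf2ra in the connecting tubule and cycling cells, and Csf1r in the parietal class, the only filled point to the left of 0.

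For each member, the change was then compared between the 2 tested classes with the highest mean share of its UMIs over the 6 mice, with the mouse as a block. The change of Csf1 in the parietal class minus that in endothelial cells was -0.85 ± 0.16 on the log2 scale (adjusted p = 6.7e-04, where 24.8% of genes were called), and it passed with library size only and with each mouse left out. It was lost with the parietal cluster of resolution 2 (-0.28, adjusted p = 0.58) and with mitochondrial UMIs of at most 20% (-0.35, 0.45), both added after seeing the data. The change of Csf1r in macrophages minus that in the proximal tubule was 0.56 ± 0.15 (adjusted p = 0.0049, where 6.82% were called). It was lost without sham mouse 2 (0.28, adjusted p = 0.41) and without DOCA-salt mouse 2 (0.38, 0.157). For Il34 (parietal minus thin limb, 20.2% called) the difference was 0.31 ± 0.17 (adjusted p = 0.24), which became 0.59 (adjusted p = 0.0097) without sham mouse 3. For Csf2ra (thick ascending limb minus macrophages, 3.96% called) it was 0.24 ± 0.20 (adjusted p = 0.64), and for Csf2rb (dendritic minus endothelial cells, 1.28% called) 0.40 ± 0.30 (adjusted p = 0.74).

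Shares of cells with a UMI depend on depth, so cells were also thinned to 1000 UMIs. After thinning, 25.9% ± 5.66 of sham and 34.9% ± 5.43 of DOCA-salt macrophages had a Csf1r UMI (63.4% and 75.8% unthinned, median 3790 and 4790 UMIs). In the proximal tubule it was 3.71% ± 0.79 and 3.37% ± 0.24 (18.2% and 17.1% unthinned, 9476 and 9728 UMIs), and in endothelial cells 0.278% and 0.243%. For Csf2rb, 1.65% ± 0.40 of sham and 2.62% ± 0.28 of DOCA-salt macrophages carried it after thinning, against 0.028% and 0.041% in the proximal tubule. For Il34 in the thin limb it was 19.4% ± 2.38 and 17.5% ± 2.04, and for Csf1 in endothelial cells 5.11% ± 0.506 and 6.31% ± 1.504, against 0.661% and 0.523% of macrophages. The shares of endothelial cells with Csf1r and of macrophages with Csf1 were not tested. The others were compared by a two-sided exact permutation test over 3 against 3 mice, which cannot give a p below 0.1. The p was 0.1 for Csf1r and Csf2rb in macrophages, 0.5 for Csf1r and 0.4 for Csf2rb in the proximal tubule, and 0.3 for Il34 in the thin limb and Csf1 in endothelial cells. For Csf1r in macrophages the p was 0.3 with cells thinned to 500 UMIs and 0.2 unthinned, whereas that of Csf2rb stayed at 0.1. Thinning left out 14 sham and 159 DOCA-salt macrophages.

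Of the 45 other genes of the pathway (related ligands and receptors, sheddases, signal transducers, phosphatases, transcription factors and response genes), 43 were tested in whole-kidney sums. There 17 rose and 0 fell by edgeR (24 and 2 at an unadjusted p below 0.05, 19 and 0 by DESeq2), and their median log2 change was 0.44, where 11.5% of all genes were called higher and the median was -0.02. Among receptors, Csf3r (the G-CSF receptor of neutrophils) rose by 1.77 ± 0.39 on the log2 scale, Il3ra by 1.32 ± 0.26 and Sdc1 by 0.86 ± 0.13. Among signal transducers, Tyrobp (an adaptor of myeloid receptors) rose from 19.8 ± 2.87 to 69.6 ± 19.6 CPM, and the kinases Lyn and Fyn rose by 0.75 and 0.96, with Pik3cd (1.36), Gab2 (0.68) and the phosphatase Inpp5d (1.02). The transcription factor Spi1, which encodes PU.1, rose from 5.53 ± 1.59 to 19.7 ± 4.06 CPM, Runx1 by 1.68 ± 0.19 and Irf8 by 0.75. Adam17, a sheddase that can release CSF1 and its receptor, rose from 27.2 ± 3.45 to 40.8 ± 6.36 CPM, and of the response genes Ccnd1 (0.59), Pim1 (0.58) and Socs2 (0.84) rose.

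Within macrophages, 34 of the 45 pathway genes were tested. There 4 rose and 0 fell by edgeR (7 and 1 at an unadjusted p below 0.05, 4 and 1 by DESeq2), with a median log2 change of 0.13 against 0.01 over all genes, of which 3.29% were called higher. These were Cebpb (0.96 ± 0.24), Csf3r (1.12 ± 0.24), Pik3cd (1.01 ± 0.19) and Stat3 (0.77 ± 0.16). Of 18 genes that respond to tissue dissociation, 3 rose (Socs3, Nr4a1 and Ier3) and 2 fell (Hsp90aa1 and Hspa1a) in macrophages, with a median of -0.10, where 6.76% of all genes were called. In the parietal class 1 of the 18 rose and 9 fell (median -0.48, 28.5% of all genes called), in cycling cells 8 rose and 0 fell (median 0.88, 20.5% called), and in the connecting tubule 3 rose and 7 fell (median -0.31, 24.8% called). Their part in the changes of the members was not tested.

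The genes whose mean level over the 20 named classes was most like that of each member were found by Pearson correlation of log2(CPM + 1), as a description over classes that share libraries. For Csf1r these were Sirpa (r = 0.84), Tlr2 (0.79), Aldh3b1 (0.78), Lgmn (0.76) and Ctsb (0.76), of which Lgmn peaked in the proximal tubule, and Sirpa, Tlr2 and Aldh3b1 in monocytes. For Il34 they were Wasf3 (0.91), Id4, Sema5a, 2310014F06Rik and Triqk (each 0.90), the former 4 highest in the thin limb. For Csf1 they were Zfp597, Tm9sf3, Ykt6 (each 0.83), Ilkap (0.82) and Med31 (0.81), all highest in neutrophils. For Csf2ra they were Rp2 (0.90), Prkcd (0.85), Mtm1 (0.85) and Ogfrl1 (0.84), and for Csf2rb they were Csf2rb2 (0.95), Mctp1 (0.94), Alox5ap (0.93), Rasgrp4 (0.92) and Nod2 (0.92). Between members, r was highest for Csf2ra and Csf2rb (0.71), followed by Csf1r and Csf2ra (0.58), and was 0.08 for Csf1 with Csf1r and 0.03 for Il34 with Csf1r.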

How the data were processed

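Single-cell suspensions of 6 kidneys gave 1 library per mouse by 10x Genomics 3′ chemistry. The authors deposited raw counts (whole numbers of UMIs for each gene in each barcode) from Cell Ranger (version 9.0.0 in the submitters' notes, 8.0.1 in the matrix header), which also name Seurat 4.0.0 and R 4.0.3. Strand and intron settings are not given in the sources used here. The deposited barcodes held at least 500 UMIs and 170 genes.

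Barcodes with over 50% mitochondrial or over 5% haemoglobin UMIs were left out, and the barcodes with the highest Scrublet scores were removed as doublets at 0.8% per 1000 barcodes. Cells were clustered with scanpy 1.11.5 (Python 3.11.15; 2000 variable genes without the members, 30 components, 15 neighbours, Leiden resolution 1) and named from marker lists, and a cluster without clear markers stayed unnamed. UMIs were summed per mouse and class, and classes with at least 10 cells in each mouse were tested between 3 DOCA-salt and 3 sham mice with edgeR 4.0.16 (R 4.3.3; TMM scaling, filterByExpr, quasi-likelihood test, Benjamini-Hochberg over all genes tested). DESeq2 1.42.0, other scalings and filters, left-out mice, a limit of 20% mitochondrial UMIs, kept doublets and Leiden resolution 2 were alternatives. Library size alone as the scaling moved the median log2 change of all genes by 0.12 in whole kidney, 0.19 in the connecting tubule, 0.17 in cycling cells, 0.15 in the distal convoluted tubule and -0.12 in the parietal class.

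Nothing says more of the replicates than 1 mouse each, so p-values measure the spread between these mice. Those of fits without a filter on low counts are not read so, since some fell far at nearly the same change. The members, the lists and the rule for named genes (the 5 members, pathway genes called in whole-kidney or macrophage sums, and the 5 genes most like each member among those of at least 20 CPM in a class) were chosen with earlier results of these data known. A few genes that this rule names are not reported here. The scripts were tested on simulated data with known changes. False calls were 23 of 180 in whole kidney, 18 of 178 in endothelial cells, 12 of 171 in the proximal tubule, 10 of 168 in the thin limb and 2 of 148 in macrophages. Of 2-fold changes, 60% were recovered in whole kidney, and 56% (macrophages) to 66% (endothelial cells) in these classes. A change that did not pass may thus be a real one that was missed.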

Additional observations from a re-analysis of the deposited data

Results flagged for a closer look

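A pair of results stood out because the change between DOCA-salt and sham mice differed between classes of cells of the same mice, by a test of the difference itself (edgeR's quasi-likelihood test with the mouse as a block and Benjamini-Hochberg adjustment). For Csf1, the change in the parietal class minus that in endothelial cells was -0.85 ± 0.16 on the log2 scale (adjusted p = 6.7e-04), with log2 changes of -0.53 in the parietal class and 0.29 in endothelial cells when each was fitted alone. With each mouse left out in turn, this difference ran from -0.73 to -0.97. The parietal class held different cells in each group: at Leiden resolution 2, 26.0% of its sham and 78.3% of its DOCA-salt cells fell into an injured tubule cluster. With the parietal cluster of that resolution the difference was -0.28 (adjusted p = 0.58), and with mitochondrial UMIs of at most 20% it was -0.35 (adjusted p = 0.45), both added after seeing the data.

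For Csf1r, the change in macrophages minus that in the proximal tubule was 0.56 ± 0.15 on the log2 scale (adjusted p = 0.0049). It ran from 0.28 without sham mouse 2 (adjusted p = 0.41) to 0.87 without sham mouse 3, and was also lost without DOCA-salt mouse 2 (0.38, adjusted p = 0.157). Sham mouse 2 had the lowest macrophage level of Csf1r, 216 CPM, and DOCA-salt mouse 2 the highest, 540 CPM.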

How the results depend on the processing

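Of the 5 members, 2 were called in whole-kidney sums, where 17.3% of all genes were called. The count was 1 with the replicate number as a block and 1 with macrophages left out of the sums, and ran from 0 to 3 with a mouse left out. In macrophages, where 6.76% of all genes were called, the count was 0. It became 1 with library size only, which moved the median log2 change of all genes by 0.083, and 1 without a filter on low counts, and ran from 0 to 1 with a mouse left out. In the other classes, where 0% to 28.5% of all genes were called by class, the count was 7 of 44. It became 15 of 72 without a filter on low counts and 4 of 36 with mitochondrial UMIs of at most 20%, and ran from 4 to 10 with a mouse left out. At the 20% limit the connecting tubule held 54, 75 and 62 sham cells but 5, 3 and 2 DOCA-salt cells and was not tested. These shares of all genes are those of the main fit. Shares under the alternatives are not given, so such counts are not read as a result about the members. For the difference of the change between classes, the count of 2 of 5 ran from 1 to 3 with a mouse left out, and was 1 at Leiden resolution 2 and 1 with mitochondrial UMIs of at most 20%, where Csf1r passed (0.44 and 0.55, adjusted p = 0.034 and 0.027) and Csf1 did not. Of all genes, 24.8% were called for the classes compared for Csf1, and 4.5% and 4.46% in these 2 alternatives. For the classes compared for Csf1r it was 6.82%, and 5.92% and 7.87%. Csf1r in the proximal tubule moved from 50.7 to 91.1 CPM in sham and from 47.4 to 92.3 CPM in DOCA-salt mice with mitochondrial UMIs of at most 20%, and to 49.0 CPM in DOCA-salt mice at Leiden resolution 2. The cause was not tested. No single value of a member and a class that was called changed its sign. The value for Csf1 in the parietal class, not called, turned from -0.53 to 0.12 at Leiden resolution 2 and 0.09 with mitochondrial UMIs of at most 20%, where injured tubule cells formed a cluster of their own.

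The main tests did not pair the mice by the replicate numbers of the labels. The correlation of the deviations from the group means over 9212 genes was -0.10, -0.76 and -0.23 for mice with the same number. For mice with different numbers it ran from -0.57 to 0.58. Deviations from a group mean add up to 0, which ties these values together, so they cannot show whether the numbers stand for pairs. With the replicate block, 5 of 44 values in the other classes and 0 of 4 in macrophages were called, and the calls lost were Csf2ra in whole-kidney sums (adjusted p = 0.065), Csf1 in the proximal tubule (0.064) and Csf2ra in the connecting tubule (0.060). Leiden resolution 2 does not alter whole-kidney sums and was not run for them. Depth limited the neutrophil, monocyte, B and NK cell values and the ligand counts in leukocytes.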
